A study of Mus musculus with 38 samples.

Results

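A list of 10 genes of hepatic stellate cells and the collagen matrix was followed over 37 mouse livers. They are the collagen chains Col1a1, Col1a2, Col3a1 and Col4a1, the proteoglycans Lum and Dcn, the filament gene Des, the protease inhibitor Timp1, the receptor Pdgfrb and the retinoid enzyme Lrat. The list was given by name, each gene was found on the array through the platform annotation, and the feature of highest mean represented a gene with several features. All 10 were measured, of 22485 genes in all, and no filter on level was applied. The mice were males aged 11 to 12 weeks, of mixed FVB/N-C57Bl/6 stock. LIRKO mice lack the insulin receptor (IR) in hepatocytes, LIRFKO mice lack the receptor and, in addition, FoxO1, a transcription factor that insulin holds out of the nucleus, in the same cells, and the 2 control lines carry the floxed receptor alone (IR floxed) or the floxed receptor and floxed FoxO1 (IR/FoxO1 floxed). Both deletions were driven by albumin-Cre, which is active in hepatocytes, so that stellate cells of a knockout liver are outside the target of the deletion. Whether the floxed controls carried Cre is not given in the sources used here. Every mouse was fasted, which the labels put at overnight in one place and at 24 h in another. Mice were then killed fasted, 6 h after food was returned, or 60 min after glucose. IR floxed groups held 4 fasted, 4 refed and 3 glucose mice, LIRKO and LIRFKO groups each held 3, 4 and 3, and IR/FoxO1 floxed groups held 3 fasted and 3 refed.

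Hepatic stellate cells lie between the sinusoid and the hepatocytes and store most of the body's vitamin A as retinyl esters, which Lrat makes by moving an acyl chain from lecithin to retinol. When the liver is injured they lose these stores, divide in response to platelet-derived growth factor through Pdgfrb, and lay down fibrillar collagen while Timp1 holds back the proteases that would clear it. Type I collagen is built from Col1a1 and Col1a2 chains and type III from Col3a1, whereas Col4a1 with Col4a2 forms the sheet-like collagen of basement membranes. Lumican (Lum) and decorin (Dcn) are small leucine-rich proteoglycans that bind collagen fibrils and set their spacing, and desmin (Des) is an intermediate filament used as a stellate cell marker in rodents.

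Values are log2 intensities of single dye channels of 2-colour arrays, as deposited, and an array carried 1 or 2 of the 37 libraries. Replicates are separate mice, and a single library goes by its title (fl is floxed, KO knockout, IR the LIRKO line, IRF the LIRFKO line and GTT glucose). Insr, the deleted receptor gene, averaged 6.51 to 7.21 over the LIRKO groups and 7.95 to 8.57 over the IR floxed groups. Foxo1 averaged 6.33 to 6.92 in the LIRFKO groups. The library labelled IRF.fl_Fast_523 held Foxo1 at 6.77, a level of the LIRFKO groups, and Insr at 6.90. Without it in any fit, 7 member calls were made over all comparisons, and these were the same 7 as with it. Because whole liver was measured, fewer cells of a type and less RNA per cell cannot be told apart. Each change below is on the log2 scale, with its SE, and was fitted by limma with dye and array in the model, so it can depart slightly from the difference of the group means. A gene is said to have changed where its p, adjusted by Benjamini-Hochberg over all 22485 genes, was under 0.05.

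Over 23 comparisons and 230 member values, 7 values passed, all of them higher in the first group named. Lrat held 3 of the calls, and Lum, Dcn, Col1a1 and Col1a2 held 1 each. Col3a1, Col4a1, Pdgfrb, Des and Timp1 passed nowhere. All 7 calls involve refed mice, and none fell in the comparisons of fasted or glucose mice or in the 6 tests of a difference between responses.

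**Figure D1:**
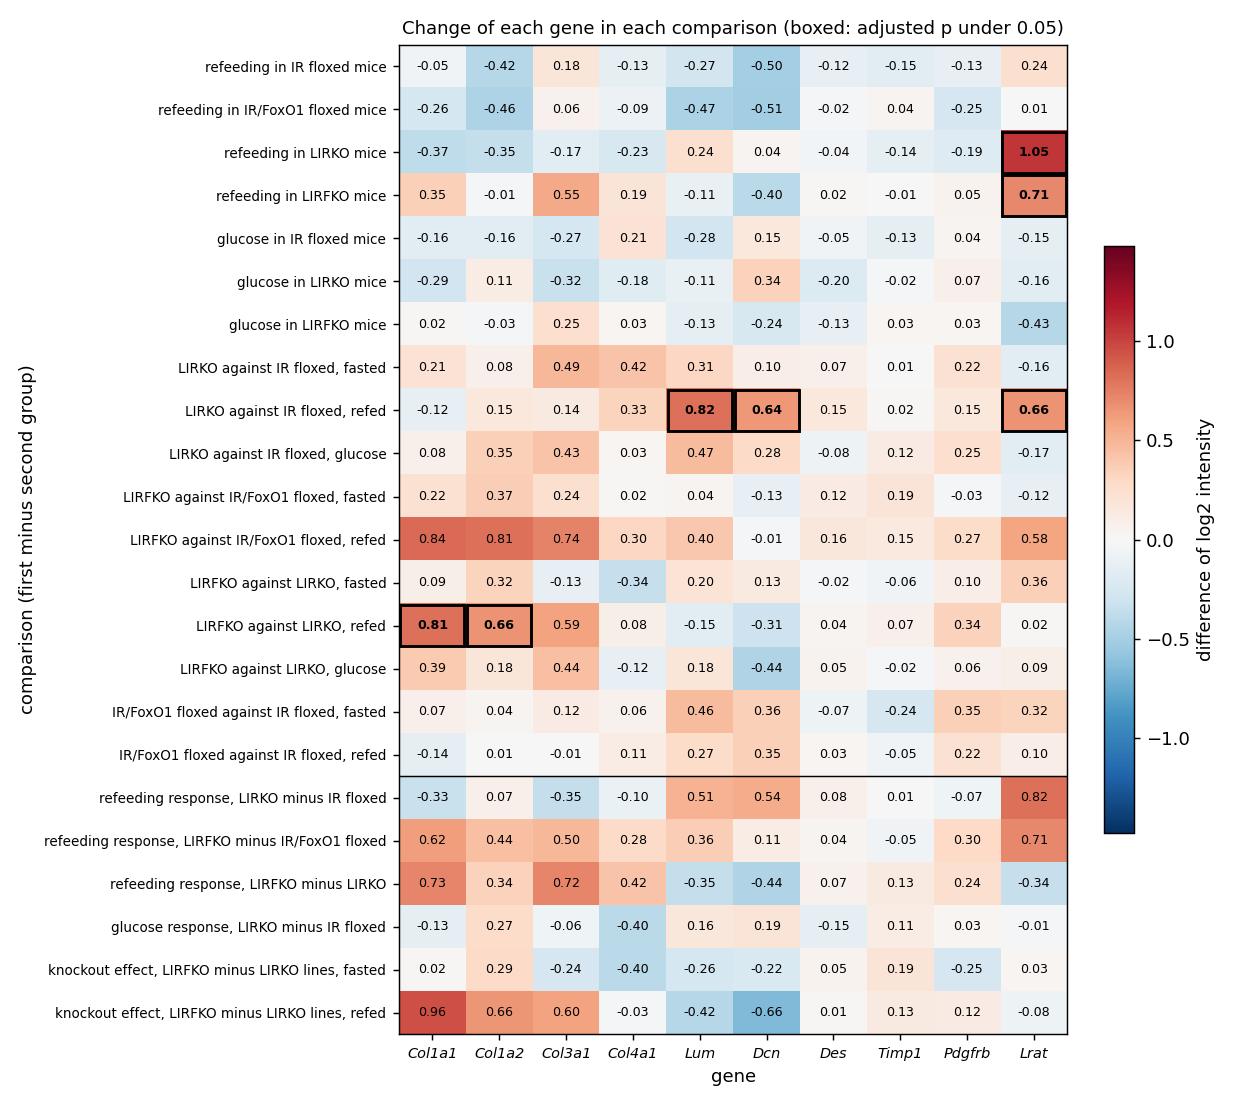
Fitted change of each of the 10 genes (columns) in each of the 23 comparisons (lines of tiles), as the first group minus the second in log2 units. The 6 lowest lines are differences of responses, boxed tiles have an adjusted p under 0.05, and the deepest one is Lrat on refeeding in LIRKO mice at 1.05.

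The stellate label was checked against levels that liver should lack. The 1096 olfactory receptor genes on the array had a 95th percentile of 5.74 to 5.89 over the groups, and a group mean under it is described as within the olfactory range. Timp1 lay within that range in all 11 groups and Des in 7 of 11, so both are near background here. The other 8 members lay above it in all 11 groups. Of 22 measured markers of hepatic stellate cells and fibroblasts, a list that holds 9 of the 10 members, 18 to 20 lay above it in each group. Gfap and Timp1 lay within the range in all 11, Des in 7, and Reln in refed IR floxed and refed IR/FoxO1 floxed mice. Dcn stood at the 95.9th percentile of mean level among all genes, and Lrat at the 61.0th, as a statement on single features and not on the relative amounts of both RNAs.

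Lrat had the largest change of the 230. Its level was highest in refed LIRKO mice, at 7.77, 8.02, 7.59 and 7.66, and fasted LIRKO mice held 6.65, 6.63 and 6.67. Every refed LIRKO mouse lay above every fasted one. LIRFKO mice held 8.16, 7.42, 7.48 and 7.87 refed and 6.96, 6.90 and 7.13 fasted, again without overlap. In IR floxed mice the refed values were 6.91, 7.31, 6.87 and 7.32 and the fasted ones 6.85, 6.92, 6.64 and 6.78, so the refed group reached higher but overlapped the fasted one. IR/FoxO1 floxed mice held 6.89, 7.41 and 7.21 refed and 6.96, 7.45 and 6.95 fasted, and these groups lay on top of each other. The 7.45 is IRF.fl_Fast_523.

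On refeeding, Lrat rose in LIRKO mice by 1.05 ± 0.157 (2.08-fold, adjusted p = 0.000346), the single member called there. Of all genes 1.85% were called in that comparison. The rise stayed past the threshold with each of 8 mice left out (highest adjusted p = 0.00504) and was 1.02 and 1.37 on the 2 slides that held both groups, with 1 mouse of each. Lrat also rose on refeeding in LIRFKO mice, by 0.71 ± 0.147 (1.64-fold, adjusted p = 0.0126), again the single member called, where 1.81% of all genes were. That call ended without IRF.KO_Fast_519 (adjusted p = 0.0521), IRF.KO_Fast_518 (0.0656) or IRF.KO_Refed_468 (0.0503), and with only these groups in the fit (0.173). The 1 slide with both groups, again with 1 mouse of each, gave 0.51. In IR floxed mice the change was 0.24 ± 0.138 (95% interval from -0.05 to 0.52, adjusted p = 0.489), and in IR/FoxO1 floxed mice it was 0.01 ± 0.158 (from -0.32 to 0.33, adjusted p = 0.994), or 0.14 ± 0.184 without IRF.fl_Fast_523. The difference between the responses of LIRKO and IR floxed mice was 0.82 ± 0.198 (from 0.41 to 1.23) and missed the threshold at an adjusted p of 0.095. It stayed short of the threshold with each of 16 mice left out, those of these groups and IRF.fl_Fast_523 (0.0846 to 0.537, the highest without IR.KO_Fast_505). It stood at 0.361 without the array block. It passed at 0.0315 with IRF.KO_Refed_468 left out, a mouse of neither line. The difference between LIRFKO and IR/FoxO1 floxed mice was 0.71 ± 0.221 (from 0.25 to 1.16, adjusted p = 1), or 0.57 ± 0.241 without IRF.fl_Fast_523.

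**Figure D2:**
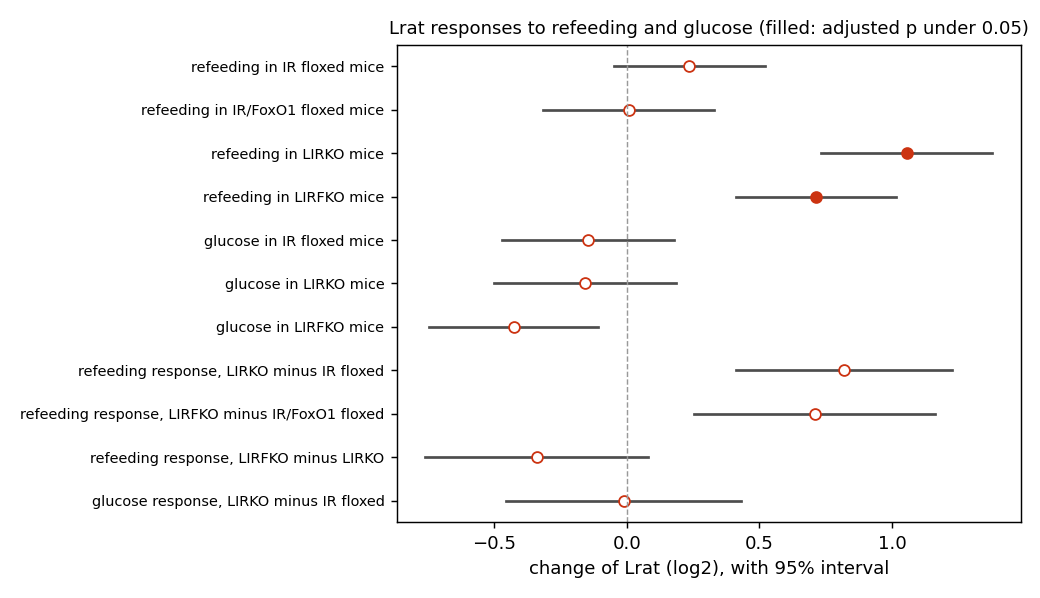
Change of Lrat (points, log2) with its 95% interval (lines) on refeeding and after glucose in each line of mice, and the differences between those responses. The 2 filled points, refeeding in LIRKO mice at 1.05 and in LIRFKO mice at 0.71, passed the threshold, and no other point did.

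Among refed mice, LIRKO livers held more Lrat RNA than IR floxed livers, by 0.66 ± 0.137 (1.58-fold, adjusted p = 0.00136). The groups did not overlap, and the call held with each of 9 mice left out (highest adjusted p = 0.00915). The slides that held both groups gave 0.67, 0.67 and 0.35. Refed LIRFKO mice stood 0.58 ± 0.155 above their own refed controls, without overlap, and missed the threshold (adjusted p = 0.091). Refed LIRFKO and LIRKO mice differed by 0.02 ± 0.137 (from -0.27 to 0.30). In the fasted state LIRKO mice stood at -0.16 ± 0.149 against IR floxed mice (adjusted p = 0.649).

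After glucose Lrat lay at the low end of its range. LIRKO mice held 6.70, 6.58 and 6.41, LIRFKO mice 6.54, 6.76 and 6.68, and IR floxed mice 6.72, 6.48 and 6.96. The LIRFKO values lay under all 3 fasted LIRFKO mice, with a change of -0.43 ± 0.155 that did not pass (adjusted p = 0.233). In the order of group means Lrat ran from glucose LIRKO mice at 6.56 ± 0.145 (SD, n = 3) to refed LIRKO mice at 7.76 ± 0.190 (SD, n = 4). Of the 10 neighbours in that order, 1 pair did not overlap, refed IR/FoxO1 floxed mice at 7.17 and refed LIRFKO mice at 7.73. Refed knockout mice of both lines thus form the top of the order. Refed LIRKO mice lay above every library of the 9 lower groups, and so did refed LIRFKO mice, except that the library labelled IRF.fl_Fast_523 at 7.45 lay above the lowest of them, at 7.42. For each of the other 9 members all neighbours overlapped.

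The first 180 bases around the Lrat start are shown because Lrat is the member with the repeated change. The window is chr3:82903945-82904124 on the minus strand of GRCm38.p6, from RefSeq, with 150 bases before the listed start and 30 from the start on. Capitals mark a CCAAT box, a TATAA box and GC boxes (GGGCGG, here on the opposite strand).
Lrat: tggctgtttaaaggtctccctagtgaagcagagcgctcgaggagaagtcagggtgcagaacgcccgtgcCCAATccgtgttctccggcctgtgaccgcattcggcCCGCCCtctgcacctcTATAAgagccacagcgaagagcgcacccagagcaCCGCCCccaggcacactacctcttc
The CCAAT letters begin 81 bases and the TATAA letters 29 bases before the start. Both strands of 32851 windows of 300 bases (250 before the start and 50 from the start on) were searched. CCAAT stood in 37.4% of them, TATAA in 24.9% and GGGCGG in 35.7%, so each motif alone is common. The letters TGTTTAC, a form of the FoxO site found in 3.65% of windows, and AGGTCA, a core of nuclear receptor sites found in 16.3%, are not in the 300-base Lrat window.

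Lrat belongs to a longer chain of retinoid genes, of which 23 others were measured. Cyp26a1, which clears retinoic acid, rose on refeeding by 2.40 ± 0.370 in IR floxed mice (adjusted p = 0.000382), by 2.25 ± 0.421 in LIRKO mice (0.00375) and by 1.98 ± 0.394 in LIRFKO mice (0.00971). It thus rose in both lines where Lrat passed and in IR floxed mice, where Lrat did not. In IR/FoxO1 floxed mice, where Lrat did not pass either, Cyp26a1 was not called. In LIRKO mice 2 of the 23 rose on refeeding, the other being the receptor gene Rxra (0.63 ± 0.155). In LIRFKO mice 3 of 23 rose, with the retinoic acid receptor gene Rarb at 1.15 ± 0.227 and the retinal reductase gene Rdh11 at 1.16 ± 0.251. By limma 0 of the 23 fell on refeeding in any of the 4 lines. The median change of the 23 was 0.05 in LIRKO and -0.05 in LIRFKO mice, beside 0.00 for all genes. Between refed LIRKO and IR floxed mice 3 of 23 were higher and 1 lower. Aldh1a1, which makes retinoic acid from retinal, was lower (change -2.32 ± 0.256, adjusted p = 4.19e-07). Bco1, which splits beta-carotene, was higher by 1.10 ± 0.248.

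Lum and Dcn were the other members that stood higher in refed LIRKO than in refed IR floxed mice. Lum held 8.68, 8.49, 8.09 and 7.91 in refed LIRKO mice and 7.10, 8.21, 7.40 and 7.37 in refed IR floxed mice. A single control, IR.fl_Refed_508, reached into the LIRKO range. Dcn held 12.92, 12.66, 12.89 and 12.44 against 12.39, 12.02, 11.80 and 12.32, without overlap. The fitted differences were 0.82 ± 0.249 for Lum (1.76-fold, adjusted p = 0.0298) and 0.64 ± 0.210 for Dcn (1.56-fold, adjusted p = 0.0447). With Lrat, 3 of 10 members were called there, beside 11.6% of all genes, and 2 of 10 did not overlap, beside 13.5% of all genes. The median change of the 10 was 0.15, beside 0.00 for all genes.

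These calls are less firm than that of Lrat. Lum's call ended without IR.KO_Refed_553 (0.65, adjusted p = 0.205), IR.KO_Refed_558 (0.0726), IR.fl_Refed_506 (0.0624), IR.fl_Refed_562 (0.119) or IR.fl_Refed_566 (0.105). The 3 slides that held both groups, with 1 or 2 mice of each, gave differences of 1.30, 0.99 and -0.31 for Lum and 0.86, 0.51 and 0.42 for Dcn. Dcn's call ended without IR.KO_Refed_553 (0.176), IR.KO_Refed_558 (0.0628), IR.KO_Refed_564 (0.129), IR.fl_Refed_506 (0.160), IR.fl_Refed_508 (0.126) or IR.fl_Refed_562 (0.0594). With only these groups in the fit neither passed (0.0766 for Lum and 0.0633 for Dcn), nor without the array block (0.0792 and 0.111), and Dcn did not pass without the dye term (0.0605). Dcn also narrowly lost its call, at an adjusted p of 0.0504 to 0.0588, without any 1 of 12 mice outside both groups. These were IR.fl_Fast_542, IR.fl_GTT_691, IRF.fl_Fast_533, IRF.fl_Refed_467, IRF.fl_Refed_472, IRF.fl_Refed_473, IRF.KO_Fast_525, IRF.KO_Refed_469, IRF.KO_Refed_478, IRF.KO_GTT_725, IRF.KO_GTT_726 and IRF.KO_GTT_727.

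Beside the higher Lrat, Lum and Dcn of refed LIRKO against refed IR floxed mice, other cell type lists differed too. Over 22 stellate and fibroblast markers 5 were higher and 0 lower in refed LIRKO mice, and the 2 that are not members were Colec10 (1.05 ± 0.247) and Colec11, a pair of soluble collectins. Of 12 Kupffer cell and macrophage markers 10 were higher, with a median of 1.31. The mean log2 level of those 12 spanned 9.29 to 9.44 in refed LIRKO mice and 8.02 to 8.23 in refed IR floxed mice, and Cd68 and Cd163 lay within the olfactory range in the IR floxed mice but not in the LIRKO mice. Endothelial markers were higher in 3 of 13, among them Cdh5 (0.54 ± 0.133). Hepatocyte markers were lower in 2 of 9, and their mean level spanned 14.3 to 15.1 in refed LIRKO mice and 15.1 to 15.3 in refed IR floxed mice. The part of these other cells in the changes of Lrat, Lum and Dcn was not tested.

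On refeeding in the control lines, the Dcn changes were -0.50 ± 0.213 in IR floxed mice (adjusted p = 0.240) and -0.51 ± 0.242 in IR/FoxO1 floxed mice (adjusted p = 0.326), and neither passed. Without IRF.fl_Fast_523 the change in IR/FoxO1 floxed mice was -0.35 ± 0.287 (adjusted p = 0.723). In LIRKO mice the Dcn change was 0.04 ± 0.242. The difference of LIRKO from IR floxed mice, 0.54 ± 0.305, did not pass either (adjusted p = 0.724). In LIRFKO mice the refed values of 12.39, 12.34, 12.21 and 12.47 all lay under the fasted ones of 12.95, 12.69 and 12.68, at a change of -0.40 ± 0.226 (adjusted p = 0.454). With Lrat, 2 of 10 members did not overlap on refeeding in LIRFKO mice, beside 11.6% of all genes. On refeeding 0 of 10 members were called by limma in IR floxed mice (2 at an unadjusted p under 0.05), beside 3.61% of all genes. In IR/FoxO1 floxed mice 0 were called, beside 3.54% of all genes. There 1 member had an unadjusted p under 0.05, and without IRF.fl_Fast_523 0 had. Markers of the stellate and fibroblast list that are not members did fall there. Vipr1 fell in IR floxed mice (-0.62 ± 0.174, adjusted p = 0.0445) and in IR/FoxO1 floxed mice (-0.89 ± 0.20, adjusted p = 0.00904). Colec11 fell in IR/FoxO1 floxed mice (-0.60 ± 0.169, adjusted p = 0.0456). The IR/FoxO1 floxed values of Vipr1 and Colec11 include IRF.fl_Fast_523 and were not read without it.

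One library of the IR floxed glucose group lay low for both proteoglycans. The library IR.fl_GTT_659 held Dcn at 11.74 and Lum at 7.04, the lowest of the 37 for each, whereas its group mates held 13.10 and 13.09 for Dcn and 7.74 and 7.80 for Lum. IR.fl_Fast_491 was next lowest for both, at 11.78 and 7.06. The 2 genes lie next to each other on chromosome 10.

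**Figure D3:**
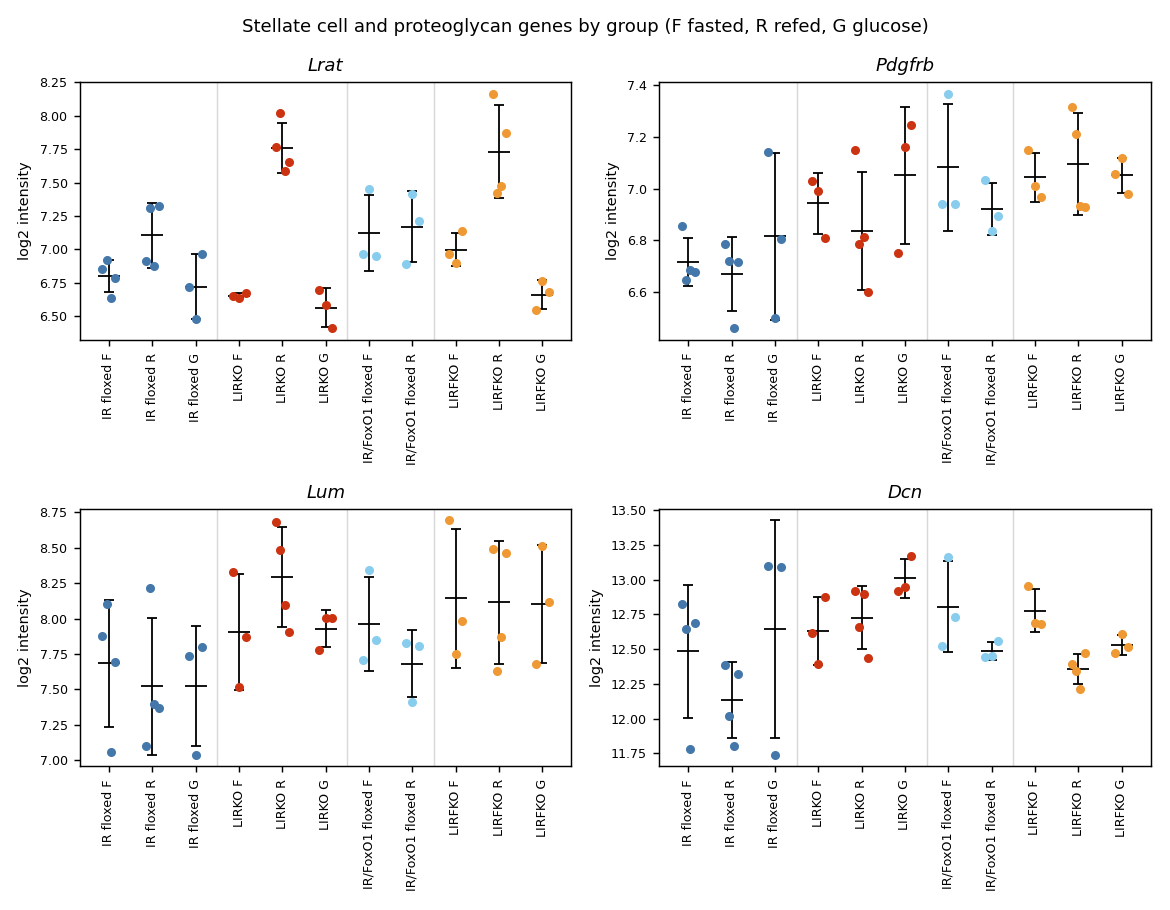
Log2 intensity of Lrat, Pdgfrb, Lum and Dcn in each library (points) of the 11 groups, with the group mean and SD (bars); F is fasted, R refed, G glucose and each panel has its own axis. For Lrat, refed LIRKO and LIRFKO mice lie between 7.42 and 8.16, above the other groups except the library IRF.fl_Fast_523 at 7.45, and for the other 3 genes neighbouring groups overlap.

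Both type I collagen chains were higher in refed LIRFKO than in refed LIRKO mice. Col1a1 held 6.87, 7.34, 6.37 and 7.05 in refed LIRFKO mice and 6.08, 5.85, 6.33 and 6.05 in refed LIRKO mice. The groups did not overlap, though IRF.KO_Refed_524 at 6.37 came close to IR.KO_Refed_564 at 6.33. Col1a2 held 8.25, 8.57, 7.64 and 8.31 against 7.69, 7.36, 7.85 and 7.28, where IRF.KO_Refed_524 again lay low and inside the LIRKO range. Col3a1 held 7.54, 7.62, 7.07 and 7.69 against 7.05, 6.55, 7.17 and 6.83, with the same mouse lowest in its group.

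Fitted differences between refed LIRFKO and LIRKO mice were 0.81 ± 0.174 for Col1a1 (1.76-fold, adjusted p = 0.00299) and 0.66 ± 0.205 for Col1a2 (1.58-fold, adjusted p = 0.0430). Col3a1 stood 0.59 ± 0.250 higher (95% interval from 0.08 to 1.11) and missed the threshold (adjusted p = 0.161). Pdgfrb, at 0.34 ± 0.122, missed it as well (adjusted p = 0.0852). Thus 2 of 10 members were called, beside 8.09% of all genes, and 1 of 10 did not overlap, beside 13.7%. Col1a1 kept its call with each of 9 mice left out (highest adjusted p = 0.0200). The 3 slides with both groups, with 1 or 2 mice of each, gave 0.30, 0.90 and 1.49 for Col1a1, and -0.05, 0.996 and 1.22 for Col1a2.

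Single mice moved the other calls of that comparison. Col1a2 lost its call without IR.KO_Refed_558 (adjusted p = 0.124), IR.KO_Refed_565 (0.214), IRF.KO_Refed_468 (0.169), IRF.KO_Refed_469 (0.126) or IRF.KO_Refed_478 (0.130). It lay at 0.0502 to 0.0541 without IR.KO_GTT_690, IR.KO_GTT_697, IRF.fl_Refed_472 or IRF.KO_GTT_727, mice outside both groups. The call was also lost with slide as a fixed block (0.0510), without the dye term (0.0548), without the array block (0.0804) and with only these groups in the fit (0.0839). Without IRF.KO_Refed_524, Col3a1 passed at 0.81 ± 0.248 (adjusted p = 0.0465), and without IRF.KO_Refed_468 it stood at 0.52 (0.410). Without IR.KO_Refed_553, Pdgfrb passed at 0.44 ± 0.124 (adjusted p = 0.0335).

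Against their own refed controls, LIRFKO mice stood higher in the same chains without a call. The IR/FoxO1 floxed refed mice held Col1a1 at 6.19, 5.98 and 6.32, all under the 4 LIRFKO mice. Differences were 0.84 ± 0.195 for Col1a1 (adjusted p = 0.0515), 0.81 ± 0.230 for Col1a2 (0.119) and 0.74 ± 0.281 for Col3a1 (0.304). By limma 0 of 10 members were called and 4 had an unadjusted p under 0.05, beside 0.378% of all genes called. Without IRF.KO_Refed_524, Col1a1 (1.04, adjusted p = 0.00511) and Col1a2 (1.02, adjusted p = 0.0340) passed. Col1a1 also passed, at 0.0357 to 0.0418, without IR.fl_Refed_508, IRF.fl_Fast_516, IRF.KO_Fast_519, IRF.KO_Fast_525, IRF.KO_GTT_726 or IRF.KO_GTT_727, mice outside both groups. It stood farther from the threshold without IRF.fl_Refed_473 (0.72, adjusted p = 0.290) and with only these groups in the fit (0.239). Without IRF.fl_Fast_523, Col1a1 and Col1a2 did not pass (0.0765 and 0.179). Groups did not overlap for 5 of 10 members, Col1a1, Col3a1, Col4a1, Timp1 and Lrat, all higher in LIRFKO mice, beside 11.2% of all genes. Comparisons with LIRKO and with IR/FoxO1 floxed mice share the refed LIRFKO mice.

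The knockout effect after food, LIRFKO against its controls minus LIRKO against its controls, was 0.96 ± 0.255 for Col1a1 (from 0.43 to 1.48) and did not pass (adjusted p = 0.0605, 0.00735 without IRF.KO_Refed_524, 0.0464 without IRF.KO_Fast_519 and 0.0424 without IRF.KO_GTT_726). It stood at 0.173 without IRF.fl_Refed_473 and at 0.108 without the array block. By limma 0 of 10 members were called in that difference and 3 had an unadjusted p under 0.05, beside 1.32% of all genes called. LIRKO against IR floxed refed mice gave Col1a1 at -0.12 ± 0.173 and Col1a2 at 0.15 ± 0.204, and neither passed (adjusted p = 0.817 and 0.785). On refeeding itself Col1a1 changed by -0.37 ± 0.199 in LIRKO mice (adjusted p = 0.478), where the groups did not overlap, as they did not for Lrat (2 of 10 members, beside 12.1% of all genes). In LIRFKO mice it changed by 0.35 ± 0.186 (adjusted p = 0.416), and the 1 slide with both groups gave -0.32. The difference of those responses was 0.73 ± 0.259 (adjusted p = 0.611).

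Cell type markers stood as follows beside the LIRFKO values. Rgs5, of the stellate and fibroblast list, was lower in refed LIRFKO than in refed LIRKO mice (-0.63 ± 0.196, adjusted p = 0.0447), unlike Col1a1 and Col1a2. It was lower after glucose as well (-0.80 ± 0.226, adjusted p = 0.0271). Kupffer cell and macrophage markers were lower in 8 of 12 in refed LIRFKO than in refed LIRKO mice, with a median of -0.75, and their mean level spanned 8.35 to 8.96. Of 9 myofibroblast and smooth muscle markers 0 were called by limma there. Their mean level spanned 6.51 to 7.26 in refed LIRFKO and 6.32 to 6.78 in refed LIRKO mice, with Myh11, Lmod1 and Actg2 within the olfactory range in both groups and Cnn1 in LIRKO mice. The part of these cells in the collagen values was not tested.

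**Figure D4:**
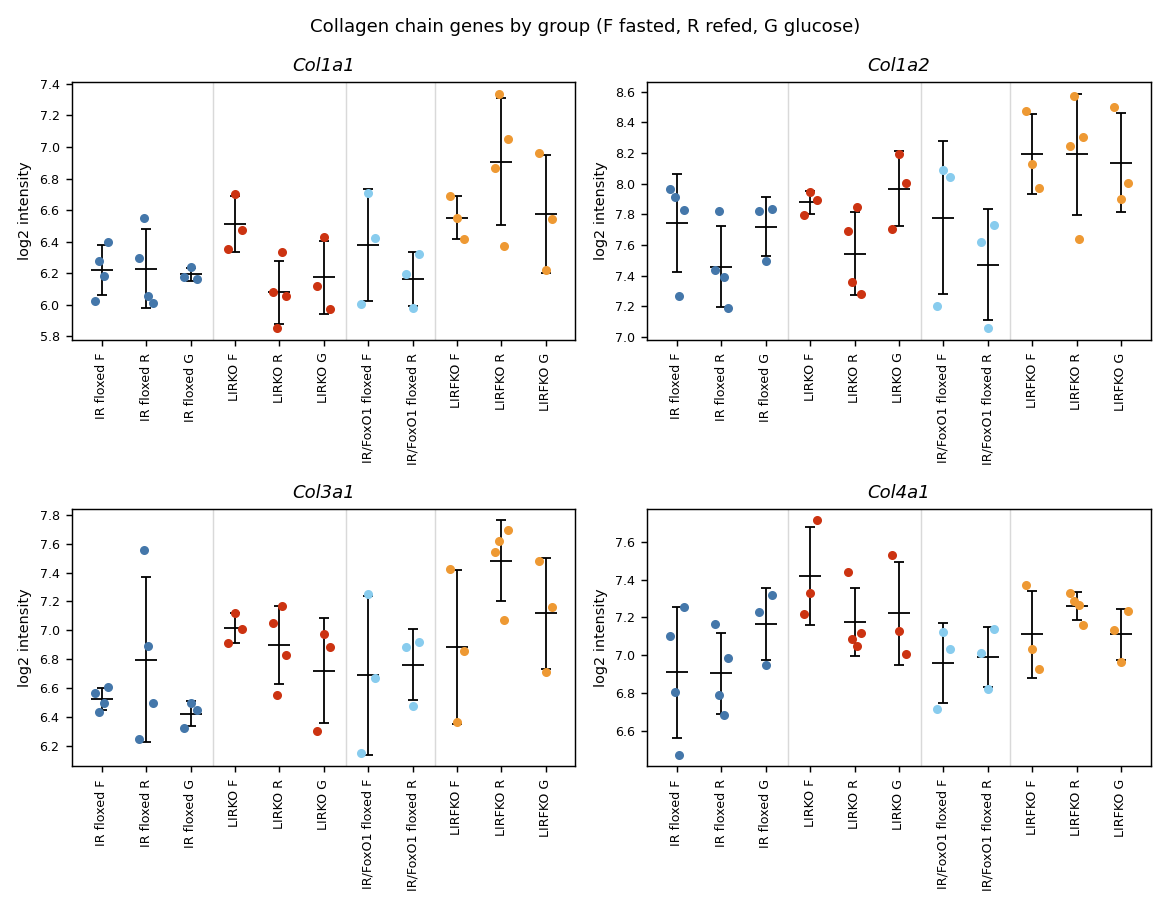
Log2 intensity of Col1a1, Col1a2, Col3a1 and Col4a1 in each library (points) of the 11 groups, with the group mean and SD (bars); F is fasted, R refed, G glucose and each panel has its own axis. Col1a1 reaches its highest group mean in refed LIRFKO mice, at 6.91, and its lowest in refed LIRKO mice, at 6.08.

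The starts of Col1a2 and Col3a1 are shown because these chains varied together from mouse to mouse. Both windows are from RefSeq on GRCm38.p6, each on the plus strand, with 150 bases before the listed start and 30 from the start on. They lie at chr6:4505468-4505647 for Col1a2 and chr1:45311388-45311567 for Col3a1. Capitals mark CCAAT boxes on either strand in Col1a2 and a TATAA box read on both strands in Col3a1.
Col1a2: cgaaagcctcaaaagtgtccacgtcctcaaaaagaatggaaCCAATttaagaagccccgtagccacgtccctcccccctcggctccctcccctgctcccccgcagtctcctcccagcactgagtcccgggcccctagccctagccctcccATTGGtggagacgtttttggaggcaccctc
Col3a1: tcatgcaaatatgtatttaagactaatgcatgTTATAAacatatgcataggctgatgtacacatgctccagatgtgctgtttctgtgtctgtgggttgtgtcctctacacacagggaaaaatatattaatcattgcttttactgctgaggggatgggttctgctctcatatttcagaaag
The CCAAT letters of Col1a2 begin 109 bases before the start, and a CCAAT on the opposite strand begins at the listed start base itself. In Col3a1 the TATAA letters begin 117 bases before the start and overlap a TATAA of the opposite strand. No motif of the 5 searched stands in both 180-base windows. Promoter sequences were matched for 6 of the 10 members, Col1a2, Col3a1, Col4a1, Des, Timp1 and Lrat.

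Col4a1, the basement membrane chain, had its highest group mean in fasted LIRKO mice, at 7.42 ± 0.259 (SD, n = 3). Those mice held 7.22, 7.33 and 7.71, and fasted IR floxed mice held 7.10, 6.81, 6.47 and 7.25, where IR.fl_Fast_486 at 7.25 overlapped. The difference was 0.42 ± 0.155 (adjusted p = 0.0966) and passed without IR.KO_Fast_505 (0.63, adjusted p = 0.0402) or IR.fl_Fast_486 (0.61, adjusted p = 0.0292). By limma 0 of 10 members were called there and 1 had an unadjusted p under 0.05, beside 8.06% of all genes called. Its partner chain gene Col4a2 was higher there by 0.72 ± 0.195 (adjusted p = 0.0212), 1 of 20 other collagen chains. Nid1, whose product ties type IV collagen to laminin, was higher by 1.05 ± 0.202 (adjusted p = 0.00137). Col4a1 and Col4a2 run apart from starts listed 21 bases from each other on opposite strands of chromosome 8. The 10 Col4a1 features on the array correlated with each other at 0.704 to 0.942 over the libraries.

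Pdgfrb, the growth factor receptor, kept to a narrow band, with group means from 6.67 in refed IR floxed to 7.10 in refed LIRFKO mice. Its changes over the 23 comparisons ran from -0.25 to 0.35 and none passed. Fasted IR/FoxO1 floxed mice lay above all fasted IR floxed mice, by 0.35 ± 0.131 (adjusted p = 0.506). They held 6.94, 7.37 and 6.94, the highest being IRF.fl_Fast_523, against 6.85, 6.65, 6.68 and 6.68. Without that mouse the difference was 0.20 ± 0.134 (adjusted p = 0.953). Of 6 other genes of platelet-derived growth factor and its receptors, Pdgfa was lower in glucose LIRKO than in glucose IR floxed mice (-0.97 ± 0.225, adjusted p = 0.00671), the single call of that list over the comparisons.

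Des and Timp1 gave no call and little range. Des means ran from 5.69 to 5.96 and Timp1 means from 5.45 to 5.67, and their changes lay between -0.24 and 0.19. The 10 Des features correlated with each other at 0.0798 to 0.604 over the libraries, against 0.704 to 0.942 for Col4a1.

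No member passed after glucose or between fasted groups. By limma 0 of 10 members were called after glucose in IR floxed mice (0 at an unadjusted p under 0.05), 0 in LIRKO mice (1) and 0 in LIRFKO mice (1), beside 0.16%, 0.596% and 0.654% of all genes. Groups did not overlap for 0, 2 and 2 members, beside 5.12%, 10.5% and 13.1% of all genes. The 2 were Dcn and Des in LIRKO mice and Dcn and Lrat in LIRFKO mice. For glucose in IR floxed mice 36 of all genes were called, and 384 without IR.fl_GTT_659, with 0 members called either way. Dcn there gave 1.32 on slide 187 and -0.94 on slide 188, with 1 mouse of each group.

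Between lines after glucose, LIRKO against IR floxed gave 0 of 10 (0 unadjusted), beside 8.3%, and LIRFKO against LIRKO gave 0 (0 unadjusted), beside 7.57%. Groups did not overlap for 1 member in each, Timp1 (beside 15.8%) and Dcn (beside 19.9%). Between fasted groups LIRFKO against LIRKO gave 0 (2 unadjusted), beside 6.52%, and LIRFKO against IR/FoxO1 floxed gave 0 (1 unadjusted, or 2 without IRF.fl_Fast_523), beside 0.00445%. Col1a2 and Lrat did not overlap in the first (2 of 10, beside 16.3%) and Timp1 did not in the second (1 of 10, beside 7.41%). In the second, the 2 unadjusted without IRF.fl_Fast_523 were Col1a2 at 0.56 ± 0.267 (0.37 with it) and Timp1 at 0.22 ± 0.101 (0.19 with it). Between fasted LIRKO and IR floxed mice Col3a1 did not overlap (1 of 10, beside 14.2%), at 0.49 ± 0.272 (adjusted p = 0.337).

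The 2 control lines differed by limma in 0 members fasted (3 unadjusted, or 1, Timp1, without IRF.fl_Fast_523), beside 0.0356%, and in 0 refed (0 unadjusted), beside 0.0845%. Groups did not overlap for Timp1, Pdgfrb and Lrat fasted (3 of 10, beside 7%) and for Dcn and Pdgfrb refed (2 of 10, beside 6.46%). On refeeding within the control lines 0 members did not overlap, beside 7.39% in IR floxed and 17.6% in IR/FoxO1 floxed mice. The other tests of responses also gave 0 by limma. For refeeding they were LIRKO minus IR floxed (1 unadjusted), beside 0.165%, LIRFKO minus IR/FoxO1 floxed (2, or 1 without IRF.fl_Fast_523), beside 0.00445%, and LIRFKO minus LIRKO (1), beside 0.0222%. The glucose response of LIRKO minus IR floxed mice gave 0 unadjusted, and 0% of all genes were called. The knockout effect in fasted mice gave 0 unadjusted, beside 0.934%.

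Lists of other matrix genes were read beside the members. Among 20 other collagen chains, Col27a1, a fibrillar chain, rose on refeeding in IR floxed mice (1.10 ± 0.184, adjusted p = 0.000893) and in IR/FoxO1 floxed mice (0.81 ± 0.210, adjusted p = 0.0275), and was lower in refed LIRKO than in refed IR floxed mice (-1.20 ± 0.182, adjusted p = 3.91e-05). It was the single call of that list in each of these. Col16a1 (0.42 ± 0.0956) and Col4a6 (0.50 ± 0.128) were the 2 of 20 called higher in refed LIRFKO than in refed LIRKO mice. Of 28 other proteoglycans and matrix glycoproteins, 2 were higher and 0 lower there, Mfap4 (0.90 ± 0.124), a microfibril protein gene, and Efemp1 (0.56 ± 0.154). In refed LIRKO against refed IR floxed mice 2 of the 28 were higher and 1 lower. These were Nid1, a basement membrane glycoprotein gene (0.73 ± 0.185), Sparc, a collagen-binding glycoprotein gene (0.46 ± 0.145), and Omd, a small leucine-rich proteoglycan gene like Lum and Dcn (-0.97 ± 0.173, adjusted p = 0.000294). Omd was also lower in LIRKO mice fasted (-1.31 ± 0.189) and after glucose (-1.68 ± 0.200), and in refed LIRFKO mice against their controls (-1.17 ± 0.196, adjusted p = 0.00318).

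Of 17 collagen processing genes 3 were higher and 2 lower in refed LIRKO than in refed IR floxed mice. Plod1, a lysyl hydroxylase gene, was lower in LIRKO mice fasted (-0.88 ± 0.190), refed (-1.10 ± 0.174) and after glucose (adjusted p = 0.00222). Crtap, part of the prolyl 3-hydroxylase complex, was higher in LIRKO mice refed (0.77 ± 0.142), fasted (0.60 ± 0.155) and after glucose (0.52 ± 0.164). Pcolce2, an enhancer of procollagen cleavage, was higher in refed LIRKO mice (1.01 ± 0.138). Serpinh1, the collagen chaperone, rose on refeeding in LIRFKO mice (0.83 ± 0.213, adjusted p = 0.0397), the single one of 17. Of 18 matrix proteases and inhibitors 1 was higher in refed LIRKO than in refed IR floxed mice, Mmp14, a membrane collagenase (0.71 ± 0.133).

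Of 23 genes of the transforming growth factor beta pathway, which drives collagen synthesis in stellate cells, 4 were higher and 0 lower in refed LIRKO than in refed IR floxed mice. The receptor gene Tgfbr2 was higher by 2.31 ± 0.286 (adjusted p = 2.44e-06), and fasted it was higher by 2.49 ± 0.313. In refed LIRFKO mice it was lower than in refed LIRKO mice (change -1.64 ± 0.288, adjusted p = 0.000446), with 1 of 23 higher and 2 lower. Ccn2, a target often read beside Col1a1, fell on refeeding in LIRKO mice (change -2.30 ± 0.445, adjusted p = 0.00523). Among 9 myofibroblast markers, Tpm2, Actg2 and Cnn1 were higher in fasted LIRKO than in fasted IR floxed mice, by 0.51, 0.46 and 0.94. Actg2 and Cnn1 lay within the olfactory range in the IR floxed mice and above it in the LIRKO mice.

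With group means taken off, the members were set against each other over the 37 libraries by Pearson's r and Spearman's rho, with 100000 permutations within groups and adjustment over 45 pairs. By r, 8 pairs had an adjusted p under 0.05, all positive, and by rho 6 did. The type I and III chains formed the closest set. Col1a1 and Col1a2 had r = 0.787 (rho = 0.791, adjusted permutation p = 0.00090 and 0.00045), Col1a2 and Col3a1 0.727 (0.762, 0.00112 and 0.00045), and Col1a1 and Col3a1 0.695 (0.676, 0.0021 and 0.0048). Without the 2 libraries farthest from the median of the first gene these were 0.734, 0.671 and 0.700, and with slide and dye taken off as well they were 0.796, 0.764 and 0.748.

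Dcn was in 4 of the 8 pairs. It went with Col4a1 at r = 0.625 (rho = 0.588, adjusted permutation p = 0.00934 and 0.0194), Pdgfrb at 0.578 (0.584, 0.0217 and 0.0181), Lum at 0.543 (0.494, 0.0281 and 0.0533) and Col1a2 at 0.481 (0.419, 0.0212 and 0.0766). The last 2 passed by r alone. Lum also went with Lrat at r = 0.564 (rho = 0.551, adjusted permutation p = 0.0165 and 0.0194). Without the 2 farthest libraries these 5 were 0.543, 0.562, 0.547, 0.457 and 0.529. Des and Col4a1 each had 10 features. With these averaged, their r with each other was 0.536 (adjusted permutation p = 0.0265), and with the highest-mean features it was 0.194 (0.587). Averaging moved Des with Dcn from 0.016 to 0.420 (0.127 averaged) and Des with Col1a1 from 0.240 to -0.0998 (0.869 averaged). Lrat and Col1a1, which kept calls under every omission in LIRKO refeeding and in LIRFKO against LIRKO, had r = -0.03 (rho = -0.13, adjusted permutation p = 0.944 and 0.788). Libraries of a slide and array share hybridisation, and with slide and dye taken off 15 pairs passed. The permutations did not keep libraries of an array together and took no account of the slide and dye terms removed, which limits that count.

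**Figure D5:**
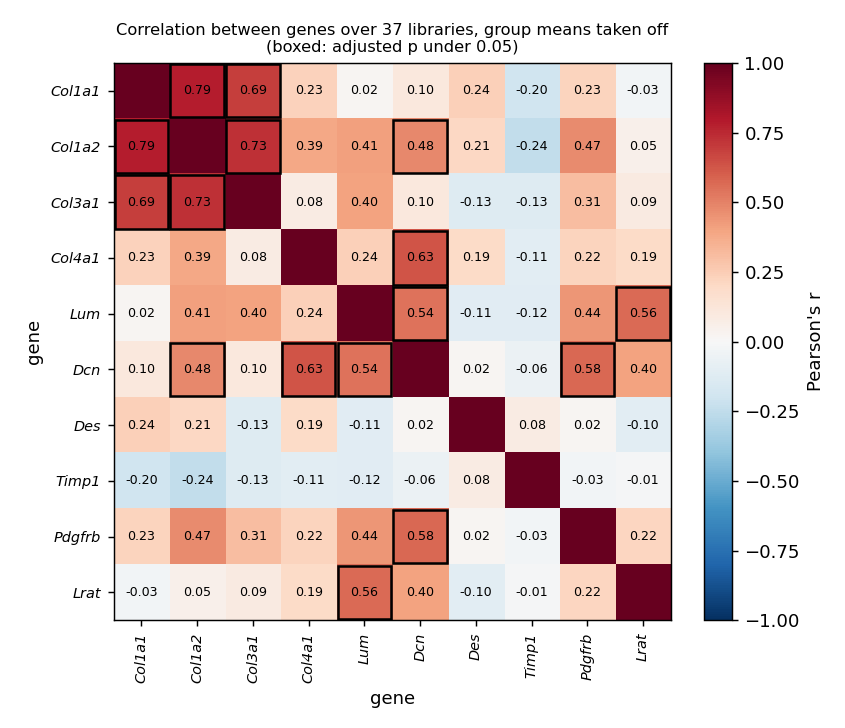
Pearson's r between the 10 genes (both axes) over 37 libraries after each group's mean was taken off; boxed tiles have an adjusted p under 0.05. Each gene is shown by its feature of highest mean. Col1a1, Col1a2 and Col3a1 form a block at 0.69 to 0.79, and Des and Timp1 have no boxed tile.

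Among the 11242 genes in the upper part of the mean levels, split at the median, those most like each member were named by r over the same 37 libraries, as a description. Col4a1 was most like its partner Col4a2 (0.780), with Akr1b10 (0.688) and Nid1 (0.686) next. Col1a2 was most like Col1a1 and then Col6a1 (0.787), a chain of beaded-filament collagen. Col3a1 was most like Lgals1 (0.754) and Vim (0.746), the gene of the mesenchymal filament vimentin. Lum was most like Colec10 (0.772), Dcn most like the endothelial gene Cd93 (0.785) and then Ecm1 (0.776), and Pdgfrb most like Glis2 (0.789). Lrat was most like Tns3 (0.701) and Dennd2a (0.686).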

How the data were processed

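Liver RNA (200 ng a mouse) was labelled and hybridised to Agilent 2-colour arrays, per the labels' protocols, and each dye channel was deposited as a sample. The deposited values are log2 intensities. Limma 3.20.1 under R 3.1.0 was used, per the submitters' processing notes, and the background correction and normalization were not stated in these sources. The number of mice limits the precision. Of 38 libraries 1, whose labels conflict on treatment, entered no comparison. The platform annotation gave 1 gene for 33026 of 45220 features, no gene for 12194 and several for 0, which left 22485 genes.

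The fit (limma 3.58.1, statmod 1.5.0, R 4.3.3) had a mean for each of the 11 groups, a dye term, and the array as random block (correlation 0.358). Benjamini-Hochberg adjustment ran over all genes within a comparison. The script was tested on simulated data. Members, gene lists and the rule for named genes (up to 3 called genes of smallest p per list and comparison, and the 3 most like each member) were chosen with earlier results of these data known. Alternatives were no array block, no dye term, slide as a block, quantile normalization, all probes averaged, genes above the median, only the groups compared, and each mouse left out. A stated number of mice left out takes those of the groups compared and IRF.fl_Fast_523.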

Additional observations from a re-analysis of the deposited data

Results flagged for a closer look

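Within groups of 4 mice, a library was set against the spread of the others by Dixon's ratio, a test that chance trips in about 1 of 20 groups. Of 40 groups of a member tested, 3 held such a library. IR.KO_Refed_553 had Col4a1 at 7.44, above 7.05 to 7.12 in the other refed LIRKO mice. The library IR.fl_Fast_491 had Dcn at 11.78, below 12.65 to 12.82 in the other fasted IR floxed mice, and Timp1 at 5.995, above 5.534 to 5.571, though Timp1 lies within the olfactory range.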

How the results depend on the processing

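Counts of members called are given per comparison. With only the groups compared in the fit, counts were 0 for refeeding in LIRFKO mice (1 in the full fit), 1 for LIRKO against IR floxed fasted (0), 1 for LIRKO against IR floxed refed (3) and 1 for LIRFKO against LIRKO refed (2). Without the array block they were 1 for LIRKO against IR floxed refed and 1 for LIRFKO against LIRKO refed. For LIRFKO against LIRKO refed the count was 1 without the dye term and 1 with slide as a fixed block, where Col1a2 was the call lost. Without the dye term Dcn was lost too for LIRKO against IR floxed refed (2 called). With genes above the median alone, 1 was called for LIRFKO against IR/FoxO1 floxed refed and 1 for the knockout effect refed, Col1a1 in each. Quantile normalization and averaged probes moved no count. With each mouse of the groups compared, or IRF.fl_Fast_523, left out in turn, counts ranged from 0 to 1 for refeeding in LIRFKO mice, 0 to 1 for LIRKO against IR floxed fasted, 1 to 3 for LIRKO against IR floxed refed, 0 to 2 for LIRFKO against IR/FoxO1 floxed refed, 1 to 3 for LIRFKO against LIRKO refed, and 0 to 1 for the knockout effect refed. Calls moved by omission of a mouse outside the groups compared are given with the members above. The cause of these moves was not tested. By construction, some settings hold fewer mice (only the groups compared, a mouse left out) or fewer genes (those above the median). The other settings keep all mice and genes. No value changed sign with a call. The array correlation was held at its full value in the fits with fewer mice. No paired analysis was possible because the numbers in the titles are mouse numbers, which the groups do not share. Counts of genes called depend on the setting far more in some comparisons: LIRKO against IR floxed after glucose had 1866 and, with only those groups, 5.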

Other observations

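The library IRF.KO_GTT_724, which the labels place in no single treatment, held Lrat at 7.01, between the LIRFKO fasted values of 6.90 to 7.13 and above the LIRFKO glucose values of 6.54 to 6.76. Its Lum, at 7.18, and its Dcn, at 12.39, lay under both groups. Its Col1a1, at 6.67, lay inside both.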
